A study of Arabidopsis thaliana with 9 samples.

Results

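SPX1 (AT5G20150) and 9 other phosphate starvation genes were followed through the roots of 3 Arabidopsis thaliana genotypes. They were taken by locus from the deposited count files, as 10 of the 28775 loci listed. The phosphate sensors were SPX1, SPX2 (AT2G26660), SPX3 (AT2G45130) and SPX4 (AT5G15330). The transport genes were PHT1;1 (AT5G43350), PHT1;4 (AT2G38940) and PHO1;H1 (AT1G68740). The membrane lipid genes were MGD2 (AT5G20410), MGD3 (AT2G11810) and SQD2 (AT5G01220). Of the 10 genes, 9 had enough counts to be tested among 19496 genes, and SPX3 did not.

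Messenger RNA was sequenced from root tissue of 2-week-old plants grown in long days, with 3 libraries for each genotype. The 35S:rMYB83 plants overexpress a form of MYB83, a regulator of the secondary wall, that resists the microRNA miR858. The 35S:miR858 plants overexpress miR858 itself, which targets messenger RNAs of MYB transcription factors. Both transgenes are named for the 35S promoter of cauliflower mosaic virus, which is active in most plant tissues, so neither line limits the change to 1 root cell type. Col-0 is the wild type. The study is about cyst nematode parasitism, but no label names an infection. The sources used here do not give the phosphate content of the medium or how many lines and plants each library stands for. Nothing in the labels says that the 3 libraries of a genotype came from separate cultures, so each p-value reflects the spread among these 9 samples, which may be technical.

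When phosphate is ample, SPX proteins bind inositol pyrophosphates and hold back the transcription factor PHR1. When phosphate runs short, PHR1 is released and binds the short P1BS motif before many starvation genes, SPX1 among them. Those genes raise phosphate uptake and replace membrane phospholipids with lipids that hold no phosphorus. SPX1, SPX2 and SPX3 messenger RNAs are known to rise on starvation, whereas that of SPX4 is not induced.

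The P1BS motif is shown first because it is the sequence that PHR1 is known to bind. It was searched as GNATATNC, a pattern that reads the same on both strands, in the TAIR10.1 genome. Matches lay within 250 bases before to 50 bases after the annotated start in 4 of the 10 genes (40%), against 1664 of 26697 protein-coding promoters (6.23%). In a window that began 1000 bases before the start, 7 of the 10 genes (70%) held a match, against 5587 promoters (20.9%). The 30-base windows below run 5′ to 3′ on the gene's strand, with the motif in capitals.
SPX1, chr5:6801536-6801565 (+): tttcctatcaaGAATATTCcatggaatcca
SPX1, chr5:6802293-6802322 (+): cagagaaaaaaGGATATTCtaattagaaac
SPX3, chr2:18606186-18606215 (+): tattagagaccGAATATGCcagaggatttg
SPX3, chr2:18606309-18606338 (+): gctaaagctaaGCATATCCgctttcatatt
SPX4, chr5:4980025-4980054 (+): atggacatattGTATATGCatataatcaca
PHT1;1, chr5:17402926-17402955 (-): tatgttctcgcGAATATCCtatgtttttcg
PHT1;1, chr5:17402908-17402937 (-): ctatgtttttcGAATATGCttttttaaaat
PHT1;4, chr2:16257139-16257168 (+): gttgttcggaaGAATATACcgaagtagcaa
MGD2, chr5:6895951-6895980 (+): aatgagcaatgGGATATACaagagcccggt
MGD2, chr5:6896438-6896467 (+): tatatactactGAATATTCttttgttaata
SQD2, chr5:90439-90468 (-): ttatgtgaagcGAATATTCattggaataga
The nearest match in SPX1 began at base 22 after the annotated start, inside the transcript, and the other at base -735. In SPX3 both matches lay upstream, at bases -213 and -90. PHT1;4 and MGD2 each had a match across or just before the start, at bases -7 and -14, and MGD2 held a further match after the start, at base 37. The 30-base window of that further match runs past the end of the searched stretch, so it is not printed above. The matches of SPX4, PHT1;1 and SQD2 were farther upstream. The upstream window of MGD2 overlaps the neighbouring gene AT5G20400. No match was found in these windows of SPX2, PHO1;H1 or MGD3, which says only that these letters are not there. A match is a description of sequence, and binding was not measured.

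**Figure D1:**
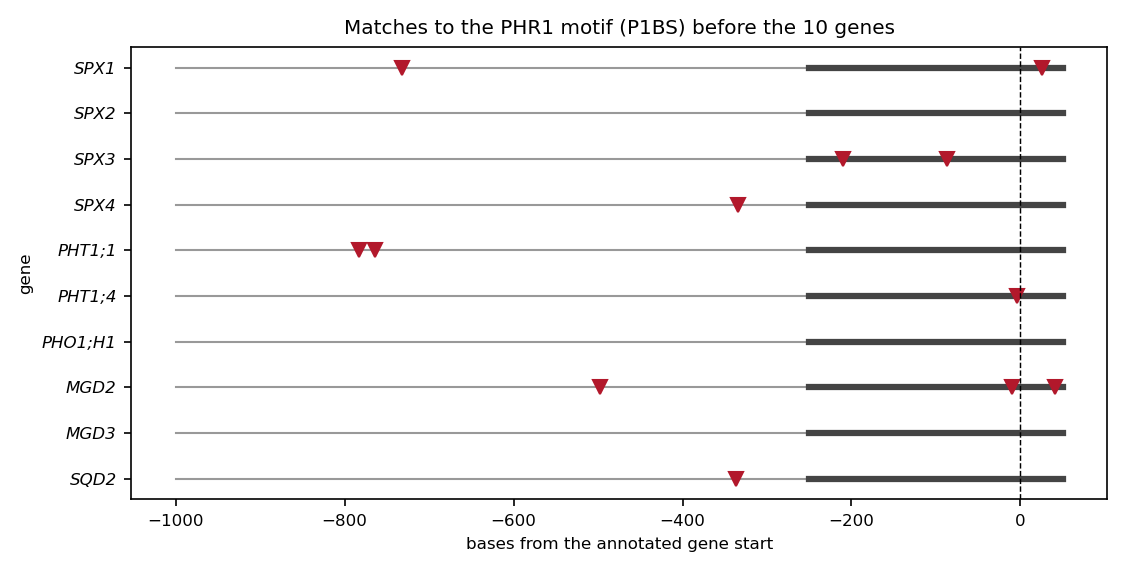
Positions of GNATATNC matches (red triangles) before the 10 genes, in bases from the annotated gene start (dashed line). The thick bar is the window from 250 bases before to 50 after the start, where 4 of the 10 genes hold a match, and the thin line extends to 1000 bases before it.

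Library totals ran from 5313656 to 10648857 gene counts, and values below are CPM, gene counts divided by library size in units of 1e6 counts after scaling by the trimmed mean of M values (TMM). The transgenes matched the labels. MYB83 had 134, 98.0 and 102 CPM in 35S:rMYB83 roots, 1.56, 1.54 and 1.51 CPM in 35S:miR858 roots and 0.948, 2.17 and 0.723 CPM in Col-0 roots. The MIR858A locus had 14.4, 25.6 and 24.4 CPM in 35S:miR858 roots and no count in the other 6 libraries. All 8 root identity markers were detected in every library, and their sum moved with genotype. They summed to 7711 to 9850 CPM in 35S:rMYB83 and 7197 to 8161 CPM in 35S:miR858, against 4490 to 6495 CPM in Col-0. Of the 8, 3 rose, 0 fell and 5 were not called in each line against Col-0. Of all tested genes, 6.7% rose in 35S:rMYB83 and 11.6% in 35S:miR858. The median log2 differences of the 8 were 0.26 in 35S:rMYB83 and 0.45 in 35S:miR858. None passed between the lines (edgeR, 1 of 8 with an unadjusted p under 0.05). The part of this shift in the differences from Col-0 below was not tested. Of 10 root hair markers, 0 were called in any comparison (edgeR). The 20 green shoot markers, among them genes of the light-harvesting complexes, summed to 7374 CPM in 35S:rMYB83 replicate 1 and 3751 CPM in Col-0 replicate 1, against 625 to 1878 CPM in the other 7 libraries. They had no marker at 0 in any library except 1 of 20 in Col-0 replicate 3. Of the 20, 0 were called in any comparison (edgeR). Their median log2 differences were 0.80 in 35S:rMYB83 and -0.53 in 35S:miR858 against Col-0, and 1.41 between 35S:rMYB83 and 35S:miR858. The 2 libraries with the highest green shoot sums also had the highest SPX1 of their genotypes. In 35S:miR858 the library with the highest sum (replicate 3, 1878 CPM) instead had the lowest SPX1 (2.80 CPM). The part of shoot tissue in these results was not tested beyond the fits without both of those 2 libraries given below. In bulk roots, fewer cells of a type and less RNA per cell cannot be told apart.

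The genes differed widely in level. Per kilobase of exon, PHT1;1 was the most abundant, with a mean over the 9 libraries of 72.4 CPM per kb and a range of 48.9 to 89.9, above every library of every other member. PHT1;4, SPX1, SQD2, SPX4 and SPX2 followed with means of 15.5, 14.8, 14.5, 11.6 and 10.7 CPM per kb, and their ranges overlapped, so neighbours in that order did not stand apart. PHO1;H1 averaged 3.60 CPM per kb, MGD2 1.71, MGD3 1.17 and SPX3 0.554. SPX1 ranged from 2.32 to 43.3 CPM per kb, and the next 3 genes in that order ranged from 7.25 to 20.4 CPM per kb between them.

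**Figure D2:**
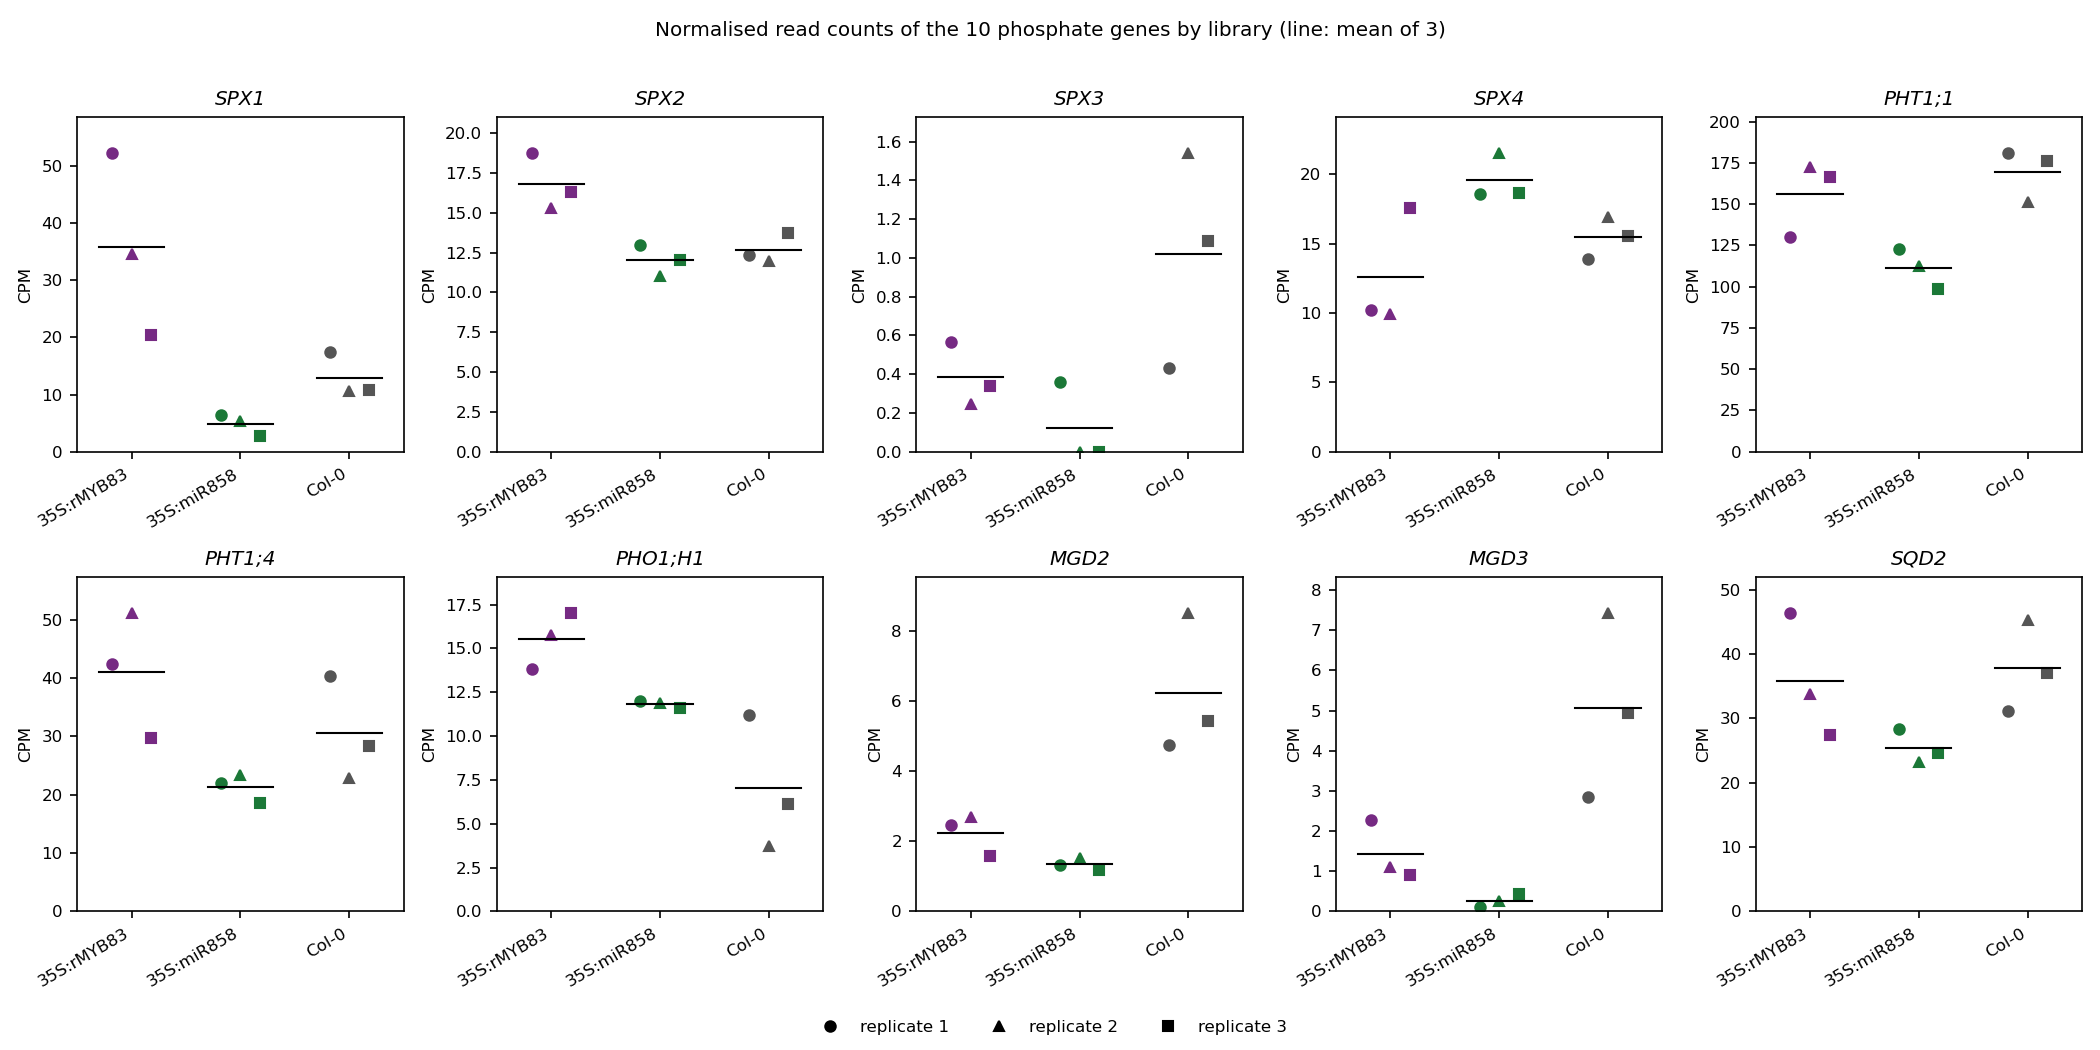
Normalised read counts (CPM) of the 10 genes in each library, with 35S:rMYB83, 35S:miR858 and Col-0 from left to right, symbols for the replicates and a line at the mean of 3. SPX1 is low in 35S:miR858 and high in 35S:rMYB83, whereas MGD2 and MGD3 are low in both lines.

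SPX1, which encodes a nuclear phosphate sensor that inhibits PHR1, moved in opposite directions in the 2 lines. It had 52.2, 34.6 and 20.4 CPM in 35S:rMYB83 roots, 6.36, 5.38 and 2.80 CPM in 35S:miR858 roots, and 17.4, 10.7 and 10.8 CPM in Col-0 roots. Every 35S:miR858 library was below every Col-0 library, and every 35S:rMYB83 library was above them. The group means were 35.8 ± 15.9, 4.85 ± 1.84 and 13.0 ± 3.84 CPM in 35S:rMYB83, 35S:miR858 and Col-0 (SD, n = 3 each). SPX1 fell to 0.369 times its Col-0 level in 35S:miR858 (log2 fold change -1.44, SE 0.40, adjusted p = 0.0253, edgeR). It rose 2.71-fold in 35S:rMYB83 (log2 fold change 1.44, SE 0.36, adjusted p = 0.022, edgeR). Between the lines it was 7.35-fold higher in 35S:rMYB83 than in 35S:miR858 (log2 fold change 2.88, SE 0.40, adjusted p = 0.00442, edgeR), and this call held without each of the 9 libraries in turn. The calls against Col-0 were less firm. That in 35S:miR858 was lost without replicate 1 of Col-0 (edgeR adjusted p = 0.0718) or without replicate 2 (0.0614) or 3 (0.0842) of 35S:miR858. That in 35S:rMYB83 was lost without replicate 2 (edgeR adjusted p = 0.0784) or 3 (0.0815) of Col-0, or without 35S:rMYB83 replicate 1 (0.0658) or 35S:rMYB83 replicate 2 (0.058). With the 2 libraries richest in green shoot counts left out together, the log2 fold change of SPX1 was -1.15 in 35S:miR858 (edgeR adjusted p = 0.0295) and 1.37 in 35S:rMYB83 (edgeR adjusted p = 0.0202) against Col-0. It was 2.52 between 35S:rMYB83 and 35S:miR858 (edgeR adjusted p = 0.00419).

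SPX2 and SPX4 did not pass the test in any comparison of the fit with all libraries and TMM. SPX2, a close relative of SPX1 that also inhibits PHR1, had 18.7, 15.3 and 16.3 CPM in 35S:rMYB83, 13.0, 11.0 and 12.1 CPM in 35S:miR858, and 12.3, 12.0 and 13.7 CPM in Col-0. The 3 libraries of 35S:rMYB83 lay above all 6 others. Its log2 difference in 35S:rMYB83 against Col-0 was 0.40 (95% interval 0.16 to 0.65, edgeR adjusted p = 0.0532, and 0.0498 with relative log expression (RLE) size factors in place of TMM) and against 35S:miR858 0.48 (0.23 to 0.72, edgeR adjusted p = 0.0699). In 35S:miR858 against Col-0 it was -0.07 (-0.32 to 0.17).

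SPX4, a sensor that holds PHR1 in the cytosol, had 10.2, 9.91 and 17.6 CPM in 35S:rMYB83, 18.6, 21.5 and 18.6 CPM in 35S:miR858, and 13.9, 16.9 and 15.5 CPM in Col-0. By group means its order was the reverse of that of SPX1, and the 35S:miR858 libraries were above all others. The log2 difference was 0.34 in 35S:miR858 against Col-0 (95% interval -0.05 to 0.74) and -0.62 in 35S:rMYB83 against 35S:miR858 (-1.03 to -0.21), with edgeR adjusted p of 0.255 and 0.143. In 35S:rMYB83 against Col-0 it was -0.28 (-0.69 to 0.13, edgeR adjusted p = 0.406). Replicate 3 of 35S:rMYB83 stood apart from its group, and without it SPX4 passed as lower in 35S:rMYB83 than in Col-0 (edgeR adjusted p = 0.0235) and than in 35S:miR858 (0.00959).

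SPX3, a further inhibitor of PHR1 and the scarcest member, was too low to test. It had 8, 3 and 31 counts in all over the 3 libraries of 35S:rMYB83, 35S:miR858 and Col-0. Per library that was 0.568, 0.245 and 0.340 CPM in 35S:rMYB83, 0.360, 0 and 0 CPM in 35S:miR858, and 0.431, 1.54 and 1.08 CPM in Col-0. The count rate in 35S:miR858 was 0.118 times that in Col-0, with a 95% interval of 0.0230 to 0.378 that covers counting error only. In 35S:rMYB83 it was 0.359 times that in Col-0 (0.142 to 0.797), and 1 Col-0 library lay within the range of 35S:rMYB83. In a fit with no filter on low counts the adjusted p of SPX3 in 35S:miR858 against Col-0 was 0.0457 with edgeR, and it was 0.0538 with DESeq2. In 35S:rMYB83 against Col-0 the adjusted p was 0.301 with edgeR in that fit and 0.423 with DESeq2, so SPX3 was not called there.

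PHT1;1 and PHT1;4 encode the main plasma membrane transporters that take phosphate into the root. PHT1;1 had 130, 173 and 166 CPM in 35S:rMYB83, 123, 113 and 98.5 CPM in 35S:miR858, and 181, 151 and 176 CPM in Col-0. All libraries of 35S:miR858 were below the other 6, and those of 35S:rMYB83 overlapped with Col-0. PHT1;1 fell to 0.657 times its Col-0 level in 35S:miR858 (log2 fold change -0.61, SE 0.13, adjusted p = 0.00771, edgeR), and the call held without each of the 9 libraries in turn. In 35S:rMYB83 the log2 difference from Col-0 was -0.11 (95% interval -0.37 to 0.14, edgeR adjusted p = 0.601), and from 35S:miR858 0.49 (0.24 to 0.75, edgeR adjusted p = 0.07, and 0.0378 without 35S:rMYB83 replicate 1). That difference also passed with DESeq2 (adjusted p = 0.0139) and in edgeR without the 2 libraries richest in green shoot counts (0.0256). PHT1;1 shares 42.4% of its 50-base transcript windows with PHT1;2 and PHT1;3, which lie near it on chromosome 5. Reads that aligned to more than 1 of the 3 genes were set apart from gene counts, so its counts are uncertain to that extent. No other member shares such a window with another gene, and no member overlaps another annotated gene.

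PHT1;4 had 42.4, 51.1 and 29.7 CPM in 35S:rMYB83, 22.0, 23.3 and 18.5 CPM in 35S:miR858, and 40.3, 22.9 and 28.3 CPM in Col-0. The ranges of the lines did not overlap with each other, but both overlapped with Col-0. It passed in no comparison, with log2 differences of -0.53 in 35S:miR858 (95% interval -0.99 to -0.06, edgeR adjusted p = 0.138) and 0.42 in 35S:rMYB83 (-0.03 to 0.88, edgeR adjusted p = 0.255) against Col-0. These are normal intervals, narrower than the F test implies, so one that excludes 0 is not a pass. Of the 3 transport members, 2 had an unadjusted p under 0.05 in 35S:miR858 against Col-0 (edgeR). Between 35S:rMYB83 and 35S:miR858 the log2 difference of PHT1;4 was 0.95 (0.48 to 1.42, edgeR adjusted p = 0.0583). It passed there without replicate 1 (edgeR adjusted p = 0.0261) or 2 (0.044) of Col-0 or without replicate 3 (0.0359) of 35S:rMYB83. It also passed there with DESeq2 (adjusted p = 0.00637), and in edgeR with no filter (0.0492) or with only the 2 groups compared (0.0368).

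PHO1;H1, a relative of the phosphate exporter PHO1 that takes part in moving phosphate to the shoot, had 13.8, 15.8 and 17.0 CPM in 35S:rMYB83, 12.0, 11.9 and 11.6 CPM in 35S:miR858, and 11.2, 3.71 and 6.15 CPM in Col-0. Both lines were above Col-0 in every library, and Col-0 replicate 1 was close to 35S:miR858. It rose 2.21-fold in 35S:rMYB83 (log2 fold change 1.14, SE 0.31, adjusted p = 0.0324, edgeR), a call that stood in only 1 of the 9 fits that left out a library. That fit was the one without Col-0 replicate 1. The highest adjusted p was 0.111, and the edgeR adjusted p was 0.106 without replicate 3 of Col-0, 0.051 without its replicate 2 and 0.0507 without replicate 3 of 35S:miR858. The log2 difference in 35S:miR858 against Col-0 was 0.74 (95% interval 0.13 to 1.35, edgeR adjusted p = 0.11), and it passed without Col-0 replicate 1 and without both libraries richest in green shoot counts (0.00247 in each fit). Its log2 difference between 35S:rMYB83 and 35S:miR858 was 0.40 (-0.20 to 0.99, edgeR adjusted p = 0.535).

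Of the 9 tested members, MGD3 and MGD2 fell the most. MGD2 and MGD3 encode the galactolipid synthases of the outer plastid envelope that serve phosphate starvation. MGD2 had 2.46, 2.69 and 1.59 CPM in 35S:rMYB83, 1.32, 1.54 and 1.18 CPM in 35S:miR858, and 4.74, 8.51 and 5.42 CPM in Col-0. MGD3, which RefSeq lists as MGDC, had 2.27, 1.10 and 0.908 CPM in 35S:rMYB83, 0.120, 0.256 and 0.430 CPM in 35S:miR858, and 2.84, 7.43 and 4.94 CPM in Col-0. For both genes Col-0 was above every library of both lines, and 35S:rMYB83 lay between 35S:miR858 and Col-0. MGD2 fell to 0.217 times its Col-0 level in 35S:miR858 (SE of the log2 fold change 0.32, edgeR adjusted p = 0.000955) and to 0.358 times in 35S:rMYB83 (log2 fold change -1.48, SE 0.30, edgeR adjusted p = 0.00914). Both calls held without each library in turn.

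MGD3 fell by 4.14 on the log2 scale in 35S:miR858 (SE 0.57, edgeR adjusted p = 0.000788), a call that held in all 9 fits. That change rested on 7 counts in 35S:miR858 against 156 in Col-0. In 35S:rMYB83 it fell by 1.89 (SE 0.46, edgeR adjusted p = 0.0204), and the call was lost without replicate 2 (edgeR adjusted p = 0.0823) or 3 (0.0552) of Col-0, or without 35S:rMYB83 replicate 2 (0.0799) or 35S:rMYB83 replicate 3 (0.0874). Without the 2 libraries richest in green shoot counts it fell by 2.60 there (edgeR adjusted p = 0.00337). Between 35S:rMYB83 and 35S:miR858 the log2 differences of MGD2 and MGD3 were 0.72 (95% interval 0.04 to 1.41, edgeR adjusted p = 0.313) and 2.24 (0.94 to 3.55, edgeR adjusted p = 0.1). Neither passed, although DESeq2 gave MGD3 an adjusted p of 0.0498. Of the 3 lipid members, 2 had an unadjusted p under 0.05 there (edgeR), although the normal intervals of all 3 exclude 0.

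SQD2, the enzyme of the last step of sulfolipid synthesis, had 46.4, 33.8 and 27.5 CPM in 35S:rMYB83, 28.3, 23.3 and 24.6 CPM in 35S:miR858, and 31.1, 45.4 and 37.1 CPM in Col-0. The 35S:miR858 libraries were all below Col-0, whereas 35S:rMYB83 spanned the Col-0 range. Its log2 difference in 35S:miR858 was -0.57 (95% interval -0.96 to -0.19, edgeR adjusted p = 0.0587), which passed without Col-0 replicate 1 (0.0303), 35S:rMYB83 replicate 1 (0.0264) or 35S:rMYB83 replicate 3 (0.0378). It also passed with DESeq2 (adjusted p = 0.0466), and in edgeR with library totals in place of TMM (0.0201), with only the 2 groups compared (0.0354) and without both libraries richest in green shoot counts (0.00726). In 35S:rMYB83 it was -0.09 against Col-0 (-0.47 to 0.30) and 0.49 against 35S:miR858 (0.10 to 0.88), with edgeR adjusted p of 0.808 and 0.234.

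**Figure D3:**
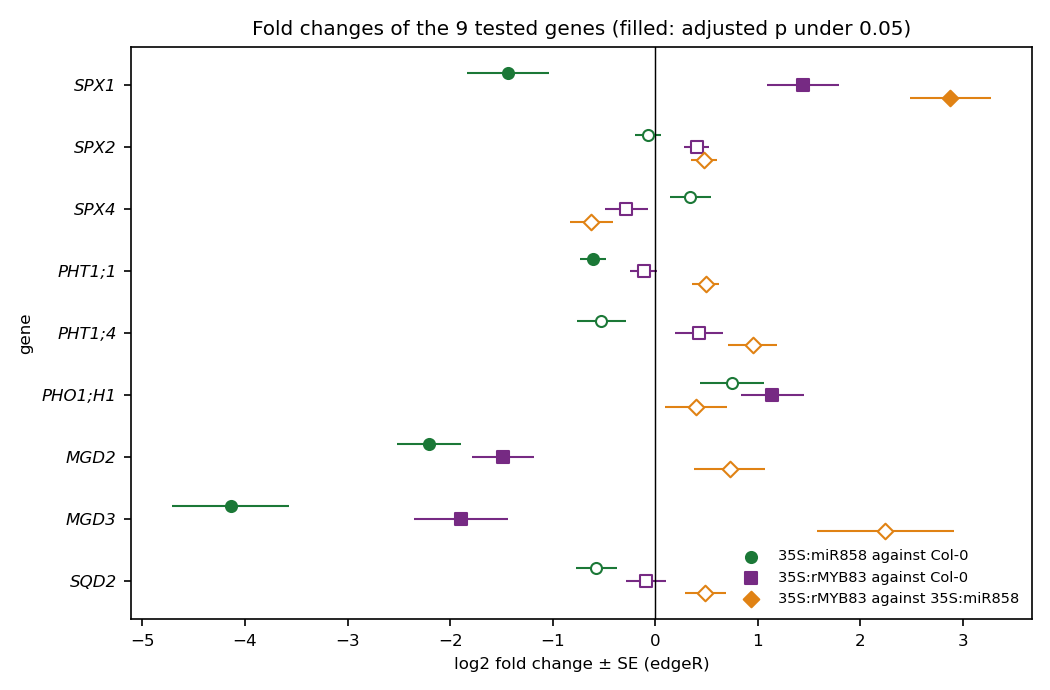
Log2 fold changes with SE (edgeR) of the 9 tested genes in the 3 comparisons, filled where the adjusted p was under 0.05. SPX1 is the one gene filled in all 3 comparisons, and MGD2 and MGD3 are filled below 0 in both lines against Col-0.

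Over the 9 tested genes, 4 fell and 0 rose in 35S:miR858 against Col-0, where 13.5% of all tested genes fell and 11.6% rose. Without the 2 libraries richest in green shoot counts, 5 fell and 1 rose, with SQD2 and PHO1;H1 added. The median log2 difference of the 9 was -0.57, against -0.02 over all tested genes. With respect to overlap, 5 of the 9 were lower in every 35S:miR858 library than in any Col-0 library and 2 were higher, and 40.6% of all genes had groups without overlap in either direction. In 35S:rMYB83 against Col-0, 2 rose (SPX1 and PHO1;H1) and 2 fell (MGD2 and MGD3), where 6.7% of all tested genes rose and 9.73% fell. Those 4 calls became 1 without Col-0 replicate 2, Col-0 replicate 3 or 35S:rMYB83 replicate 2, and 2 without 35S:rMYB83 replicate 1. The median there was -0.09, against 0.01 over all tested genes, and 5 of the 9 had groups without overlap, against 34% of all genes. Both comparisons share the Col-0 libraries. In 35S:rMYB83 against 35S:miR858, SPX1 alone rose and 0 fell, where 2.5% of all tested genes rose and 1.54% fell. These shares moved when 1 library was left out. The 301 genes that fell became 84 without 35S:miR858 replicate 2, and 96, 102 and 180 without 35S:rMYB83 replicates 1, 2 and 3. The 488 that rose became 238 and 310 without 35S:miR858 replicates 2 and 3, and 313 and 263 without 35S:rMYB83 replicates 1 and 2. The members called there numbered 2 without Col-0 replicate 1, Col-0 replicate 2 or 35S:rMYB83 replicate 1, 3 without 35S:rMYB83 replicate 3, and 4 with DESeq2. DESeq2 also called more genes in all there, 705 higher and 565 lower of 24596 in its fit. In that comparison 7 of the 9 were higher in every 35S:rMYB83 library than in any 35S:miR858 library and 1 was lower, against 24.8% of all genes without overlap. The median log2 difference of the 9 was 0.49, against 0.00 over all tested genes. An unadjusted p under 0.05 (edgeR) was found for 7 of the 9, against 3495 of all 19496 tested genes.

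Another 63 loci of the phosphate pathway, set down by role, were read from the same fits, and 45 were tested. In 35S:miR858 against Col-0, 6 rose and 12 fell, where 11.6% of all tested genes rose and 13.5% fell, so the count that rose was near that share. For 35S:rMYB83 the counts were 10 that rose and 4 that fell against Col-0, where 6.7% of all tested genes rose and 9.73% fell, so the count that fell was near that share. These 14 calls became 8 without Col-0 replicate 2 or 3 and 7 without 35S:rMYB83 replicate 2. Between 35S:rMYB83 and 35S:miR858, 5 rose and 1 fell, where 2.5% of all tested genes rose and 1.54% fell. DESeq2 called 12 in place of these 6, but it also called more genes in all. Of 24596 genes in its fit, 705 were higher and 565 lower, against 488 and 301 of 19496 with edgeR. The median log2 differences of the 45 were -0.01, 0.07 and 0.15 in the 3 comparisons (edgeR). The P1BS motif was in the 300-base window of 23 of the 63 loci (36.5%) and in the longer window of 38 (60.3%). The shares given above, 6.23% and 20.9%, are of protein-coding promoters and so are not a like background. The 63 include non-coding loci (At4, IPS1, MIR827 and the MIR399 loci), each with a match in the longer window.

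**Figure D4:**
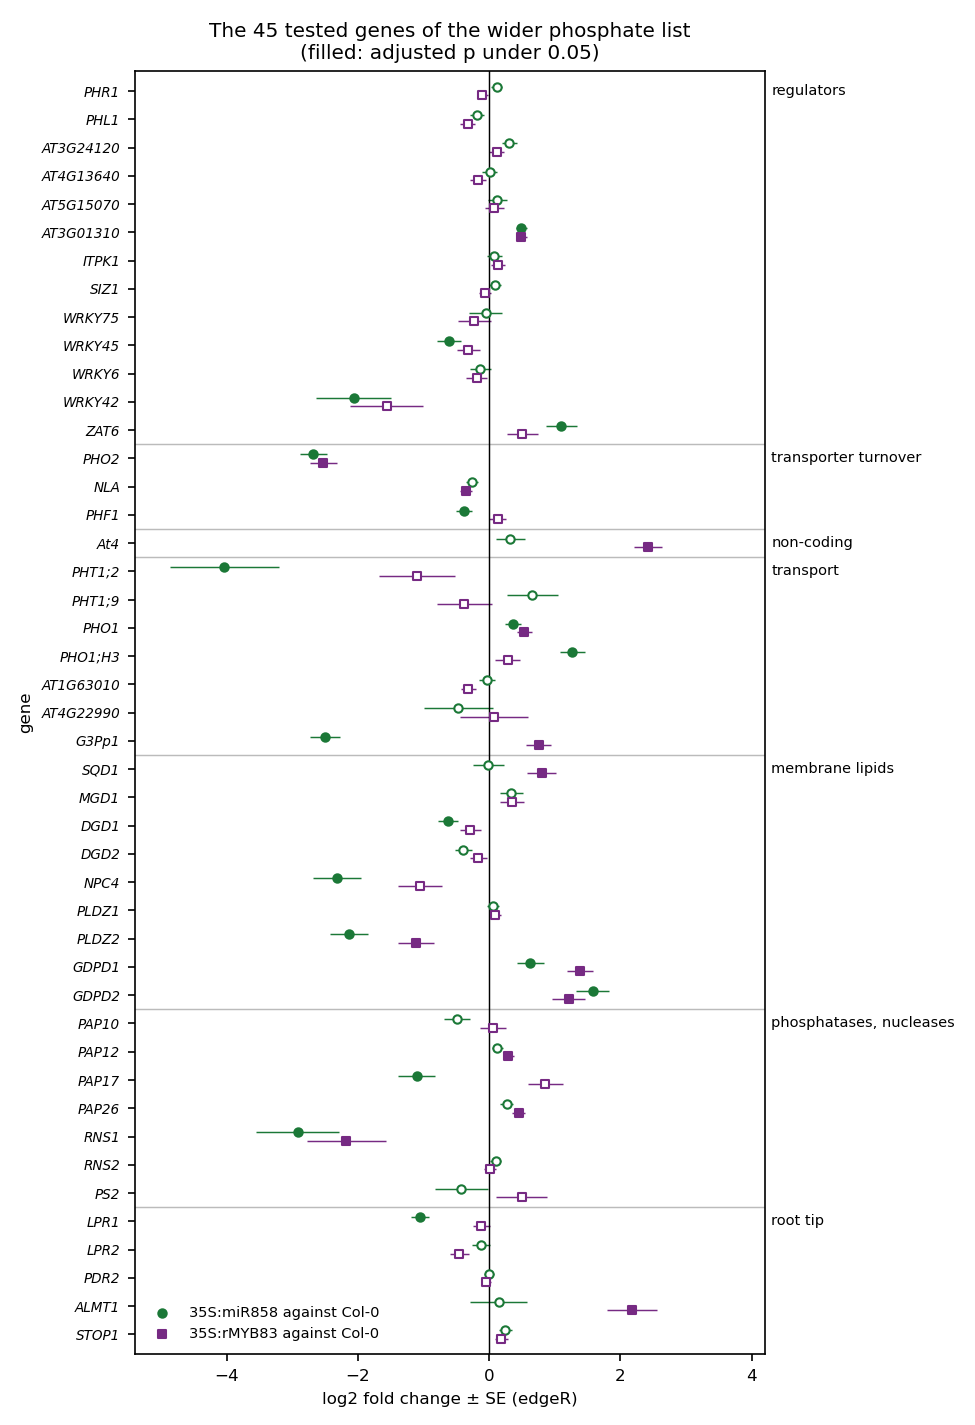
Log2 fold changes with SE (edgeR) of the 45 tested genes of the wider phosphate list against Col-0, by role, for 35S:miR858 (circles) and 35S:rMYB83 (squares), filled where the adjusted p was under 0.05. PHO2 is filled below 0 in both lines, and G3Pp1 is filled on opposite sides of 0.

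Among the regulators, PHR1 did not pass in any comparison. It had 44.1, 39.5 and 42.7 CPM in 35S:rMYB83, 45.7, 51.7 and 49.5 CPM in 35S:miR858, and 45.5, 45.7 and 44.5 CPM in Col-0. Its log2 difference from Col-0 was 0.11 (SE 0.08) in 35S:miR858 and -0.11 (SE 0.08) in 35S:rMYB83. Of 13 tested regulators, 2 rose and 2 fell in 35S:miR858 and 1 rose in 35S:rMYB83, all near the shares of all tested genes (11.6%, 13.5% and 6.7%). AT3G01310 rose by 0.49 on the log2 scale in each line (edgeR adjusted p = 0.00279 in 35S:miR858 and 0.00424 in 35S:rMYB83). ZAT6, a zinc finger factor, rose by 1.10 in 35S:miR858 (edgeR adjusted p = 0.0069), and its log2 difference in 35S:rMYB83 was 0.51 (edgeR adjusted p = 0.172).

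PHO2, the ubiquitin-conjugating enzyme that directs PHO1 and PHT1 transporters to breakdown, had the smallest adjusted p of the wider list in both lines against Col-0. It had 186, 214 and 146 CPM in 35S:rMYB83, 165, 145 and 181 CPM in 35S:miR858, and 761, 1133 and 1248 CPM in Col-0. All 6 libraries of the lines were far below the 3 of Col-0. It fell by 2.68 on the log2 scale in 35S:miR858 (SE 0.21, edgeR adjusted p = 4.11e-05) and fell by 2.53 in 35S:rMYB83 (SE 0.20, edgeR adjusted p = 0.000101), and did so without each library in turn. Between 35S:rMYB83 and 35S:miR858 its log2 difference was 0.15 (SE 0.20). NLA, a ubiquitin ligase that acts on PHT1 transporters, fell by 0.35 in 35S:rMYB83 (edgeR adjusted p = 0.0301), a call lost without replicate 2 (0.0832) or 3 (0.0734) of Col-0, or without 35S:rMYB83 replicate 1 (0.0928) or 35S:rMYB83 replicate 2 (0.0657). It was also lost without both libraries richest in green shoot counts (edgeR adjusted p = 0.13) and with only the 2 groups compared (0.0604).

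PHO2 messenger RNA is cleaved under miR399, and the non-coding RNAs At4 and IPS1 bind miR399 without being cleaved. The 6 primary MIR399 loci had 0 counts in all 9 libraries, which were made from messenger RNA and do not measure mature microRNAs. At4 had 72.3, 74.0 and 54.0 CPM in 35S:rMYB83, 15.6, 19.3 and 12.1 CPM in 35S:miR858, and 15.7, 10.6 and 11.0 CPM in Col-0. It was high in the 3 libraries of 35S:rMYB83 and overlapped between 35S:miR858 and Col-0. At4 rose by 2.42 on the log2 scale in 35S:rMYB83 against Col-0 (SE 0.21, edgeR adjusted p = 0.000132) and by 2.09 against 35S:miR858 (SE 0.21, edgeR adjusted p = 0.00155), in every fit without 1 library.

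IPS1 was too scarce to test. It had 5.30, 1.22 and 1.02 CPM in 35S:rMYB83, 0.480, 0.128 and 0 CPM in 35S:miR858, and 0.259, 0 and 0.121 CPM in Col-0. Its highest value was in 35S:rMYB83 replicate 1, and the 3 libraries of 35S:rMYB83 were above the other 6. In a fit with no filter on low counts its log2 difference in 35S:rMYB83 against Col-0 was 4.07 (SE 1.01, edgeR adjusted p = 0.0221), on 47 counts against 4.

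Of 7 tested transport genes of the wider list, 2 rose and 2 fell in 35S:miR858 and 2 rose in 35S:rMYB83, against shares of 11.6%, 13.5% and 6.7% of all tested genes. G3Pp1 (AT3G47420), a glycerol-3-phosphate permease, had 44.1, 35.1 and 24.7 CPM in 35S:rMYB83, 3.48, 4.22 and 3.12 CPM in 35S:miR858, and 21.7, 20.2 and 19.3 CPM in Col-0. The 3 genotypes did not overlap, in the same order as for SPX1. G3Pp1 fell by 2.50 on the log2 scale in 35S:miR858 (SE 0.22, edgeR adjusted p = 8.38e-05) and was 3.26 higher in 35S:rMYB83 than in 35S:miR858 (SE 0.22, edgeR adjusted p = 0.000279). In 35S:rMYB83 it rose by 0.75 (edgeR adjusted p = 0.0232), a call lost without replicate 2 (0.0683) or 3 (0.079) of Col-0, or without 35S:rMYB83 replicate 1 (0.0662) or 35S:rMYB83 replicate 2 (0.0686), or without both libraries richest in green shoot counts (0.0534).

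PHO1, the exporter that loads phosphate into the xylem, had 482, 555 and 530 CPM in 35S:rMYB83, 476, 445 and 473 CPM in 35S:miR858, and 386, 299 and 397 CPM in Col-0. Both lines were above Col-0 in every library. It rose by 0.53 on the log2 scale in 35S:rMYB83 (edgeR adjusted p = 0.0125, and 0.0509 without 35S:rMYB83 replicate 2) and by 0.36 in 35S:miR858 (edgeR adjusted p = 0.0443). The call in 35S:miR858 was lost in 6 of 9 fits, those without Col-0 replicate 2, any one 35S:miR858 library, or 35S:rMYB83 replicate 2 or 3, with adjusted p up to 0.129, and also with library totals (0.21) and with only the 2 groups compared (0.07). Its relative PHO1;H3 had 57.9, 67.0 and 63.5 CPM in 35S:rMYB83, 120, 155 and 97.7 CPM in 35S:miR858, and 51.4, 40.2 and 63.5 CPM in Col-0. PHO1;H3 rose by 1.26 in 35S:miR858 (edgeR adjusted p = 0.00131), whereas its log2 difference in 35S:rMYB83 was 0.28 (SE 0.19). It fell by 0.98 in 35S:rMYB83 against 35S:miR858 (edgeR adjusted p = 0.021), a call lost without 35S:miR858 replicate 2 (0.0732) or 35S:rMYB83 replicate 1 (0.0821), 2 (0.0651) or 3 (0.0589), or without both libraries richest in green shoot counts (0.0684).

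PHT1;2, the neighbour that shares sequence with PHT1;1, had 16, 2 and 48 counts in all in 35S:rMYB83, 35S:miR858 and Col-0. It was at 0.379, 0.489 and 1.13 CPM in 35S:rMYB83, 0, 0.256 and 0 CPM in 35S:miR858, and 1.98, 1.54 and 0.964 CPM in Col-0. The 35S:miR858 libraries were below all 6 others. It fell in 35S:miR858 (edgeR adjusted p = 0.00635), at a count rate of 0.0507 times that in Col-0 with a 95% counting interval of 0.00597 to 0.193.

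Of 9 tested lipid genes of the wider list, 2 rose and 3 fell in 35S:miR858 and 3 rose and 1 fell in 35S:rMYB83. The shares of all tested genes were 11.6% and 13.5% in 35S:miR858 and 6.7% and 9.73% in 35S:rMYB83, and the 1 that fell there was near its share. PLDZ2, a phospholipase D that breaks down phospholipids, fell by 2.14 on the log2 scale in 35S:miR858 (edgeR adjusted p = 0.000727). It fell by 1.11 in 35S:rMYB83 (edgeR adjusted p = 0.022), a call lost without replicate 2 (0.0604) or 3 (0.0802) of Col-0, or without 35S:rMYB83 replicate 2 (0.079) or 35S:rMYB83 replicate 3 (0.0803). Its direction was that of MGD2 and MGD3. GDPD1 and GDPD2, phosphodiesterases that release glycerol-3-phosphate, went the other way. GDPD2 rose by 1.57 in 35S:miR858 (edgeR adjusted p = 0.00171) and by 1.22 in 35S:rMYB83 (edgeR adjusted p = 0.00981). GDPD1 rose by 1.39 in 35S:rMYB83 (edgeR adjusted p = 0.00166) and by 0.63 in 35S:miR858 (edgeR adjusted p = 0.0443), the second call standing in only 1 of 9 fits, that without Col-0 replicate 1. Its adjusted p in 35S:miR858 was highest without 35S:miR858 replicate 2 (0.141), and it was 0.125 with library totals and 0.0619 with only the 2 groups compared. Between 35S:rMYB83 and 35S:miR858 the log2 difference of GDPD1 was 0.76 (edgeR adjusted p = 0.0628), which passed with DESeq2 (adjusted p = 0.0213), and in edgeR with only the 2 groups compared (0.0244) and without both libraries richest in green shoot counts (0.0399).

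Among 7 tested phosphatase and nuclease genes, 2 fell in 35S:miR858, where 13.5% of all tested genes fell. In 35S:rMYB83, 2 rose and 1 fell, against 6.7% and 9.73% of all tested genes. PAP17, a purple acid phosphatase, had 37.9, 34.6 and 24.3 CPM in 35S:rMYB83, 8.40, 8.96 and 7.42 CPM in 35S:miR858, and 24.5, 10.9 and 17.7 CPM in Col-0. The 35S:miR858 libraries were the lowest, and 35S:rMYB83 overlapped with Col-0 at its low end. PAP17 fell by 1.10 on the log2 scale in 35S:miR858 (edgeR adjusted p = 0.0181, and 0.0502 and 0.0621 without 35S:miR858 replicates 1 and 3). It was 1.96 higher in 35S:rMYB83 than in 35S:miR858 (SE 0.28, edgeR adjusted p = 0.00515). The log2 difference in 35S:rMYB83 against Col-0 was 0.86 (edgeR adjusted p = 0.053). It passed with DESeq2 (adjusted p = 0.0196), and in edgeR with no filter (0.0468), without Col-0 replicate 1 (0.00993) and without both libraries richest in green shoot counts (0.0194).

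RNS1, a secreted ribonuclease, was lower in both lines against Col-0. It had 22, 15 and 137 counts in all in 35S:rMYB83, 35S:miR858 and Col-0. Its range was 0.681 to 1.35 CPM in 35S:rMYB83 and 1.38 to 7.06 CPM in Col-0, so these 2 groups nearly met. It fell by 2.92 on the log2 scale in 35S:miR858 (edgeR adjusted p = 0.00832) and fell by 2.17 in 35S:rMYB83 (edgeR adjusted p = 0.0348). The second call was lost without replicate 2 (0.128) or 3 (0.0945) of Col-0 or 35S:rMYB83 replicate 1 (0.0849), 2 (0.0691) or 3 (0.124), or with only the 2 groups compared (0.0574).

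Of 5 tested genes of the root tip response to low phosphate, LPR1 and ALMT1 passed, where 13.5% of all tested genes fell in 35S:miR858 and 6.7% rose in 35S:rMYB83. LPR1, a ferroxidase, had 13.2, 15.4 and 11.9 CPM in 35S:rMYB83, 6.72, 7.43 and 7.10 CPM in 35S:miR858, and 14.6, 13.9 and 15.8 CPM in Col-0. It was lower in 35S:miR858 than in all 6 other libraries, falling by 1.05 on the log2 scale against Col-0 (edgeR adjusted p = 0.000517). LPR1 was 0.93 higher in 35S:rMYB83 than in 35S:miR858 (edgeR adjusted p = 0.00561). ALMT1, a malate channel, had 74, 20 and 22 counts in all in 35S:rMYB83, 35S:miR858 and Col-0. ALMT1 rose by 2.18 in 35S:rMYB83 against Col-0 (edgeR adjusted p = 0.00436). It was 2.03 higher in 35S:rMYB83 than in 35S:miR858 (edgeR adjusted p = 0.0187, lost without 35S:miR858 replicate 1 at 0.064, 35S:miR858 replicate 3 at 0.0694 or 35S:rMYB83 replicate 2 at 0.0952).

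**Figure D5:**
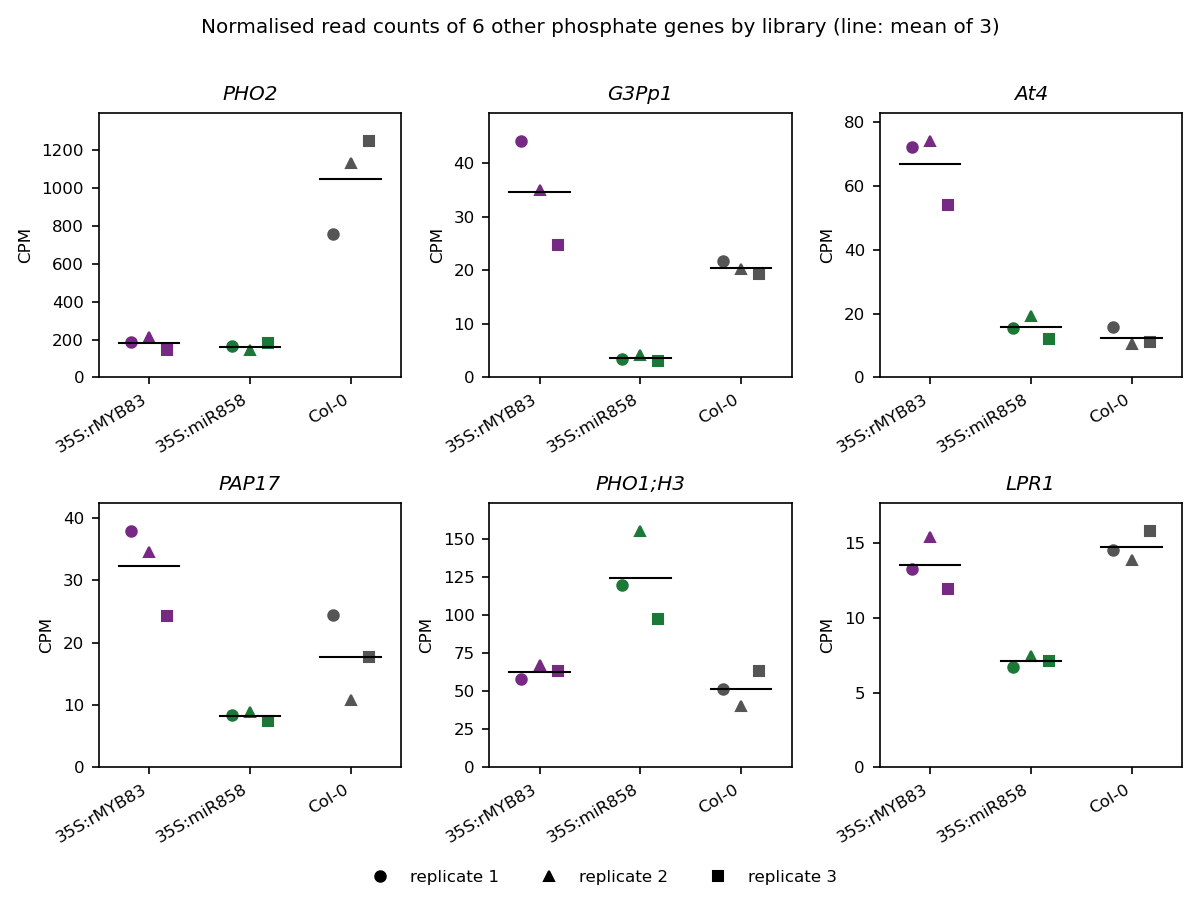
Normalised read counts (CPM) of PHO2, G3Pp1, At4, PAP17, PHO1;H3 and LPR1 in each library, with 35S:rMYB83, 35S:miR858 and Col-0 from left to right and a line at the mean of 3. PHO2 is low in both lines, At4 is high in 35S:rMYB83, and G3Pp1 and LPR1 are low in 35S:miR858.

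The genes whose levels ran most like SPX1 were found by the Pearson correlation of log2 CPM over the 9 libraries, which share genotype, among 19319 genes with a mean of at least 1 CPM. The highest were AT4G16660, annotated as a heat shock protein 70 family member (r = 0.970), AT1G53560, of the ribosomal protein L18ae family (0.970), AT3G29644, annotated as other RNA (0.964), AT4G16146, a cAMP-regulated phosphoprotein relative (0.960), and GolS2, a galactinol synthase (0.959). AT3G29644 averaged 4.82 ± 0.705 CPM in 35S:rMYB83, 1.26 ± 0.0703 CPM in 35S:miR858 and 2.18 ± 0.444 CPM in Col-0 (SD, n = 3 each). GolS2 averaged 5.65 ± 2.37 CPM in 35S:rMYB83, 0.244 ± 0.138 CPM in 35S:miR858 and 0.976 ± 0.690 CPM in Col-0. Of the phosphate genes, PAP17 ranked 8 (r = 0.958), G3Pp1 ranked 39 (0.926) and PHT1;4 ranked 71 (0.907), whereas SPX4 ran the opposite way (r = -0.859). These correlations are descriptions over libraries of 3 genotypes.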

How the data were processed

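Polyadenylated RNA of Arabidopsis roots was sequenced in 9 libraries, 3 for each of 3 genotypes, which were grouped by the genotype in the labels. Per the submitters' processing notes, FastQC, Trimmomatic, TopHat2 2.0.14, HTSeq and the TAIR10 build were used. The sources used here give neither their settings nor the strand mode. The authors deposited whole-number counts per gene, 1 file per library, and HTSeq's summary lines were left out of library sizes and tests. Per the file's own summary lines, non-unique alignments were set apart from gene counts, which touches PHT1;1 and PHT1;2. They numbered from 1.36 per gene count in Col-0 replicate 1 to 1.99 in 35S:rMYB83 replicate 2.

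Names, exon lengths and sequences came from the RefSeq annotation and genome TAIR10.1, in which 28009 of 28775 loci matched, and motif coordinates are those of TAIR10.1. The test was that of edgeR 4.0.16 under R 4.3.3 (filterByExpr, TMM, quasi-likelihood F test, all 9 libraries in 1 fit), and p-values were adjusted by Benjamini and Hochberg over all 19496 tested genes. A gene was called, and is said to have risen or fallen, at an adjusted p under 0.05. The SE is the log2 fold change over the square root of F, and 95% intervals of log2 differences are normal intervals from it. These intervals take no account of the degrees of freedom of the F test, so they are narrower than the test implies. An interval that excludes 0 need not go with an unadjusted p under 0.05. The procedure was tested on simulated data. Depth was 5313656 to 10648857 counts per library, and counting intervals cover counting error only. No 2 libraries of a genotype held identical values, and their counts differed by more than sampling noise (chi-square per degree of freedom of 6.49 or more).

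Named genes are the 10 members, and from the wider list up to 4 genes in each direction and comparison with the smallest adjusted p among those called, plus PHR1, PHO2, PHO1, IPS1 and PHT1;2, and the 5 genes most like SPX1. The members, the lists and the alternatives were chosen with earlier results of these data known. Alternatives were RLE size factors, library totals, no filter, DESeq2 1.42.0, only the 2 groups compared, the replicate number as a block, and leaving out libraries.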

Additional observations from a re-analysis of the deposited data

How the results depend on the processing

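The count of members called in 35S:rMYB83 against 35S:miR858 was 1 and depended on the setting. It was 2 with no filter, 2 with only the 2 groups, 2 with the replicate block and 2 without 35S:rMYB83 replicate 1 and Col-0 replicate 1 together, 4 with DESeq2, and 1 to 3 with a library left out. PHT1;4 (adjusted p = 0.0064 with DESeq2) and PHT1;1 (0.0139) were among the genes gained. In 35S:rMYB83 against Col-0 the count was 4, and 1 to 4 with a library left out, and in 35S:miR858 against Col-0 it was 4, and 3 to 5 with a library left out. In that comparison it was 6 without 35S:rMYB83 replicate 1 and Col-0 replicate 1 together. The motif count was 4 of 10, and 7 in the window of 1000 bases, which was chosen after seeing the data. PHO1;H1 in 35S:rMYB83 was not called with library totals (adjusted p = 0.0596) or with only the 2 groups (0.0791).

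Directions reversed for the following values, none of them called. These were ALMT1 in 35S:miR858 against Col-0 (-0.0034 with library totals, and -0.20 to 0.32 with a library left out) and PHR1 there (-0.0305 with library totals). In 35S:rMYB83 against Col-0 they were SQD2 (-0.306 to 0.0659 with a library left out) and PHT1;1 (-0.20 to 0.0015, and 0.0672 without both libraries rich in green shoot counts). In 35S:rMYB83 against 35S:miR858 it was AT3G01310 (-0.0026 with RLE, -0.00053 with no filter, -0.0046 with DESeq2, -0.0120 without both libraries, and -0.0358 to 0.0556 with a library left out). Library totals in place of TMM moved the median log2 difference of all genes from Col-0 to -0.16 in 35S:miR858 (-0.02 with TMM) and to -0.10 in 35S:rMYB83 (0.01 with TMM). The share of calls that were higher was then 24.6% in 35S:miR858 (46.4% with TMM) and 23.3% in 35S:rMYB83 (40.8% with TMM). The cause of these changes was not tested. DESeq2 called 705 genes higher and 565 lower in 35S:rMYB83 than in 35S:miR858, against 488 and 301 with edgeR. With a library left out, edgeR called 84 to 398 genes lower and 238 to 594 higher there. It called 1493 to 2277 higher and 1975 to 2869 lower in 35S:miR858 against Col-0, and 783 to 1537 higher and 1223 to 2254 lower in 35S:rMYB83 against Col-0. Over the wider list the calls then numbered 13 to 18 in 35S:miR858 and 7 to 18 in 35S:rMYB83 against Col-0, and 4 to 9 between the lines.

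Deviations from the genotype mean correlated from -0.257 to 0.548 between same-numbered libraries and from -0.538 to 0.464 between differently numbered ones. These ranges overlap, so they do not show whether replicate numbers pair the samples, and the labels name no batch. The replicate block is an alternative only. With it PAP17 passed in 35S:rMYB83 against Col-0 (adjusted p = 0.0323), PHO1 in 35S:miR858 did not (0.0511), and PHT1;4 (0.0427) and GDPD1 (0.0435) passed between 35S:rMYB83 and 35S:miR858. Depth limits SPX3, IPS1, PHT1;2, MGD3, RNS1 and ALMT1, which had few counts in at least 1 genotype.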
